A study of Homo sapiens with 5 samples.

Results

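Levels of 10 genes encoding proteins stored in, or controlling, the cytoplasmic granules of myeloid cells were followed in *MTSS1* knockout and control pools of TF-1 cells. The members were taken by name: *MPO*, *ELANE*, *AZU1*, *PRTN3*, *CTSG*, *LYZ*, *SRGN*, *PRG2*, *SERPINB1*, and *CST7*. Counts were analysed for 8 of these 10 genes, out of 27328 genes in the count table. *ELANE* and *AZU1* were not analysed here. Among the 8 genes, 5 had enough reads to be tested together with 14391 genes in all, namely *SERPINB1*, *SRGN*, *CST7*, *CTSG*, and *PRG2*. The remaining 3, *MPO*, *LYZ*, and *PRTN3*, stayed below the limit on low counts and are described by their counts.

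Granulocyte precursors make the azurophil (primary) granules at the promyelocyte stage, and fill them with myeloperoxidase, lysozyme, and the serine proteases neutrophil elastase, proteinase 3, azurocidin, and cathepsin G. The proteoglycan serglycin, the product of *SRGN*, packs these basic proteins through its negatively charged sugar chains. Serpin B1 and cystatin F, the products of *SERPINB1* and *CST7*, keep granule proteases in check, the former in the cytosol and the latter inside the secretory and endolysosomal compartments.

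TF-1 is a human acute myeloid leukemia cell line that depends on growth factors such as GM-CSF, with which all pools were cultured. Each of the 5 libraries was made from a pool of 4 single-cell clones that carried Cas9 and an sgRNA delivered by lentivirus: 2 pools with sgCtrl, which targets the *renilla luciferase* gene, and 1 pool each with sgMTSS1_1, sgMTSS1_2, and sgMTSS1_3. The pools all stem from 1 cell line, sgRNA and pool coincide within the knockout group, and p-values measure the spread between such pools. Libraries were QuantSeq 3′ libraries, in which a transcript yields reads from its 3′ end only, so that CPM, the counts per 1e+06 counts of the scaled library total, follow the number of molecules and can be compared between genes without division by length.

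Total counts were 2849979 and 3408827 in sgCtrl pools 1 and 2, and ranged from 5442639 to 8854899 in the knockout pools. Every knockout library was deeper than both control libraries, and depth and condition cannot be told apart. Mitochondrially encoded genes took 13.9% and 8.63% of the counts in the control pools and 6.71% to 7.44% in the knockout pools, while ribosomal protein genes took 7.92% and 9.51% against 12.3% to 18.3%. The targeted gene, *MTSS1*, had 203 and 87.4 CPM in the control pools and 103, 138, and 49.7 CPM in the knockout pools, which overlapped. Reads from the 3′ end do not check an edit elsewhere in the gene. *NDUFB9* overlaps *MTSS1* on the opposite strand, according to the paper at the 3′ ends. Whether reads were counted by strand is not given in the sources used here. Loss of the protein was verified by immunoblot in the study. All 10 markers of the TF-1 progenitor stage had reads, with *CD34* between 112 and 344 CPM. Of 10 mature neutrophil markers, 3 were analysed, and their summed level was 0.931 and 3.55 CPM in the control and 0.539 to 1.56 CPM in the knockout pools.

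Promoters are shown for *PRTN3*, *CTSG*, and *SERPINB1*, the 3 analysed members that matched a RefSeq promoter entry, among them the rarest and the most abundant member. The window is the 250 bases before the RefSeq gene start, build GRCh38.p14, in the direction of transcription. The *SERPINB1* start of RefSeq lies inside the gene as annotated by GENCODE, and the 96 bases of its window within that gene were searched but are not printed. Capitals mark the PU.1-type motif GAGGAAG or its reverse complement, which occurs on either strand in 11.3% of 35116 promoter windows of this length.
PRTN3, chr19:840749-840998, plus strand: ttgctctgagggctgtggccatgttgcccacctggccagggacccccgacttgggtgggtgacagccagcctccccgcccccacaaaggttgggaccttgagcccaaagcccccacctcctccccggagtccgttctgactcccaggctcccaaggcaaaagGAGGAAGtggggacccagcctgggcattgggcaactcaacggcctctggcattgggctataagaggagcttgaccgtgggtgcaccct
CTSG, chr14:24576251-24576500, minus strand: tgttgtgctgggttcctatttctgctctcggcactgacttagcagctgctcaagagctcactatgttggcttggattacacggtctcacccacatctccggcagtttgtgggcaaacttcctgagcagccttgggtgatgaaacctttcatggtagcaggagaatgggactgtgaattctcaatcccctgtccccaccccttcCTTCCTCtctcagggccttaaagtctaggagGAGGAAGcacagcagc
SERPINB1, chr6:2841960-2842113, minus strand: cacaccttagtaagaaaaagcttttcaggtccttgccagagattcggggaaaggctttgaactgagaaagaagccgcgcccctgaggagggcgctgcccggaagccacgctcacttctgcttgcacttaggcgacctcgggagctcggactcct
The *CTSG* window held 2 matches, beginning 47 and 16 bases before the start, and the *PRTN3* window held 1, beginning 88 bases before it. The *SERPINB1* window held none of these letters. The letters TTGCGCAA (C/EBP), TGTGGT (RUNX), and AAATCAC (GFI1) were searched on both strands as well and matched none of the 3 windows, while 0.131%, 10.98%, and 2.74% of all windows held them. A match is a description of the sequence only.

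*SERPINB1* and *SRGN* accounted for nearly all reads of the 8 members, and *MPO*, *CTSG*, and *PRTN3* were rare. *SERPINB1* averaged 248.8 CPM over the 5 libraries, above 97.6% of the genes in the table, and *SRGN* averaged 170.2 CPM, above 96.2%. *CST7* followed with 5.96 CPM, *CTSG* with 3.85, *PRG2* with 1.84, *MPO* with 0.947, *LYZ* with 0.671, and *PRTN3* with 0.263 CPM. The median tested gene had 15.7 CPM. *SERPINB1* ranked first and *SRGN* second in each library, although their ranges of 91.8 to 355 and 71.4 to 340.5 CPM overlapped. A gap separated *SRGN* from *CST7*, whose highest library had 7.70 CPM. From *CST7* downwards each gene's range overlapped that of the next, and *CTSG* stood above *CST7* in sgCtrl pool 1.

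**Figure D1:**
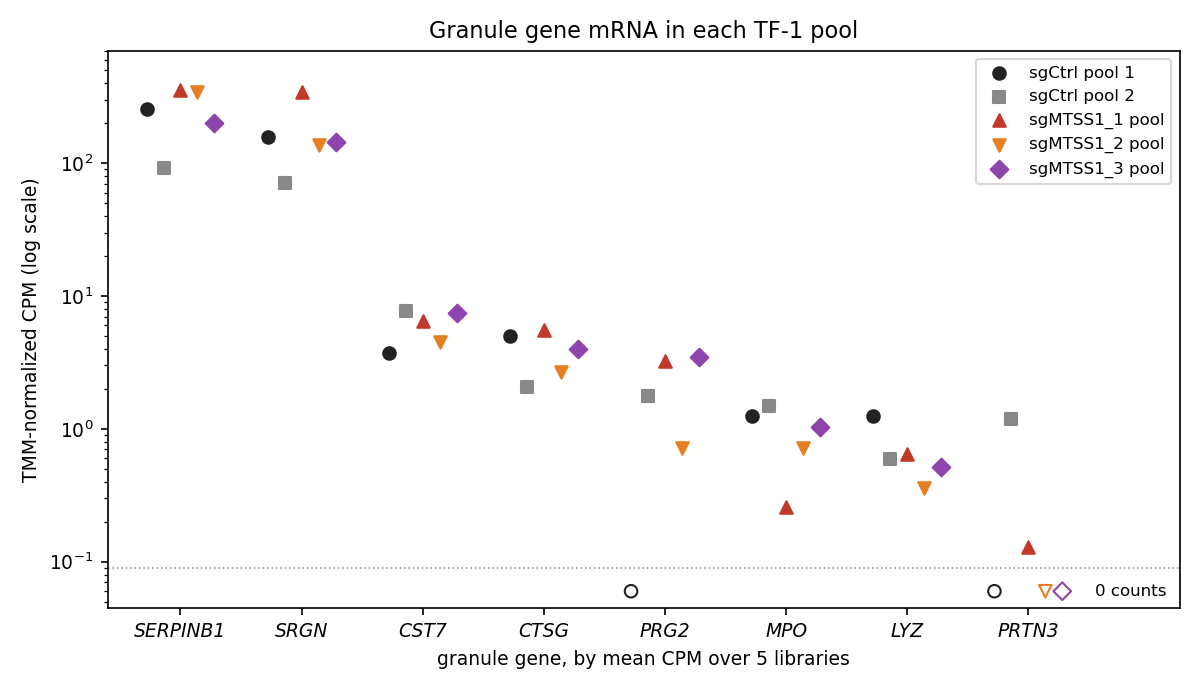
Level of each analysed granule gene in each library, in TMM-normalized CPM on a log axis. Points are single pools, and open symbols at the bottom stand for 0 counts. *SERPINB1* and *SRGN* lie above 71 CPM in every library and the other 6 genes below 8 CPM.

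No member was called between knockout and control pools. A call required an adjusted p below 0.05 and a log2-fold change beyond 1 in either direction in edgeR's quasi-likelihood test. By this rule 0 of the 5 tested members rose, where 4.17% of all tested genes did, and 0 fell, where 1.01% of all tested genes did. None had an unadjusted p below 0.05 in this test, where 3359 of the 14391 tested genes did. DESeq2 and limma-voom called 0 members too. The fitted log2-fold changes of all 5 were above 0, with a median of 0.79 against -0.03 over all tested genes. *PRG2* passed the limit on low counts only through the sgMTSS1_1 and sgMTSS1_3 pools, with 25 and 20 counts. The 3 genes below the limit had negative values in a fit without a filter (*MPO* -0.90, *LYZ* -0.65, *PRTN3* -2.92). The shared sign of the 5 thus did not hold for all 8 genes. In none of the 5 tested members did the knockout pools lie all above or all below both control pools, while 22.2% of tested genes lay above and 19.2% below in this way.

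Serpin B1 is a cytosolic inhibitor of elastase, proteinase 3, and cathepsin G. *SERPINB1* (ENSG00000021355, chr6:2832332-2841959, minus strand, GRCh38) had 254.1 and 91.8 CPM in sgCtrl pools 1 and 2. The knockout pools, in the order of their sgRNA numbers, which is kept below, had 355, 343, and 199.8 CPM. The sgMTSS1_3 pool thus lay between the control pools. Means were 173 ± 115 CPM (SD, n = 2) and 299.4 ± 86.5 CPM (SD, n = 3). The log2-fold change was 0.79 ± 0.46 (SE), with a 95% interval of -0.24 to 1.82 and an adjusted p of 0.338 (edgeR, Benjamini-Hochberg). The control pools differed from each other 2.77-fold, and the knockout pools 1.78-fold at most. The size of the change depended on a single library. Without sgCtrl pool 1 the log2-fold change was 1.71, and without sgCtrl pool 2 it was 0.26. With only 1 control pool left, that pool is assumed to vary like the knockout pools, so only the size is given here.

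*SRGN* (ENSG00000122862, chr10:69088103-69104805, plus strand), which encodes the serglycin core protein, had 157 and 71.4 CPM in the control pools and 340.5, 137, and 145 CPM in the knockout pools. The sgMTSS1_1 pool stood above the others, and the sgMTSS1_2 and sgMTSS1_3 pools lay between the control pools. Means were 114 ± 60.8 CPM (SD, n = 2) and 207 ± 115 CPM (SD, n = 3). The log2-fold change was 0.86 ± 0.49 (SE), with a 95% interval of -0.25 to 1.96 and an adjusted p of 0.332 by edgeR with Benjamini-Hochberg adjustment, the lowest among the members. It was 0.29 without the sgMTSS1_1 pool, where *SRGN* was not called either. Without sgCtrl pool 2 it was 0.42, and without sgCtrl pool 1 it was 1.55. An annotated signal recognition particle RNA lies within the *SRGN* gene on the same strand, and reads from it could not be separated here.

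The proteoglycan and the inhibitor did not keep a fixed ratio to each other. The CPM of *SRGN* per CPM of *SERPINB1* was 0.619 and 0.777 in control against 0.958, 0.398, and 0.726 in knockout pools, with the highest and the lowest ratio both among the knockout pools. All 8 members took 0.0478% (95% Wilson interval 0.0453 to 0.0504) and 0.0176% (0.0163 to 0.0191) of the counts in sgCtrl pools 1 and 2. In the knockout pools the share was 0.0624% (0.0607 to 0.0640), 0.05001% (0.0482 to 0.0519), and 0.0360% (0.0345 to 0.0376). These intervals cover counting error only, and the control pools stood further apart than the group means of 0.0327% and 0.0495%. The other 6 members summed to 11.2 and 14.8 CPM in the control pools and to 16.3, 8.98, and 16.4 CPM in the knockout pools, which overlapped.

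*CTSG* (ENSG00000100448, chr14:24573518-24576250, minus strand) encodes cathepsin G, a chymotrypsin-like serine protease, and was the only azurophil protease of the set that could be tested. Control libraries gave 16 and 7 counts, or 4.97 and 2.07 CPM, and knockout libraries gave 43, 15, and 23 counts, or 5.55, 2.69, and 3.98 CPM. Apart from the highest value, that of the sgMTSS1_1 pool, the knockout values lay between the control values. The log2-fold change was 0.22 ± 0.57 (SE), with a 95% interval of -1.05 to 1.503 and an adjusted p of 0.854 (edgeR, Benjamini-Hochberg). Its sign was not stable. After every library had been thinned to the smallest total, *CTSG* had 16 and 7 counts in the control and 8, 7, and 10 counts in the knockout pools, and the log2-fold change was -0.32. The genes on either side of *CTSG*, *CMA1* for mast cell chymase and *GZMH* for granzyme H, were not analysed here.

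*MPO* (ENSG00000005381, chr17:58269855-58280935, minus strand), the gene for the heme enzyme myeloperoxidase, was read 4 and 5 times in control and 2, 4, and 6 times in knockout libraries. In CPM these were 1.24 and 1.48 against 0.258, 0.718, and 1.04. Every knockout pool thus lay below both control pools, in the only such case among the 8 genes. Of all tested genes, 19.2% lay below in this way. Summed over pools, the level was 1.44 CPM of the unscaled totals (exact 95% Poisson interval 0.658 to 2.73) in the control and 0.597 (0.309 to 1.04) in the knockout group, and these intervals overlapped. A fit without a filter on low counts gave a log2-fold change of -0.90 and an adjusted p of 0.648 (edgeR, Benjamini-Hochberg). In thinned libraries the counts were 4 and 3 against 0, 2, and 4, and the groups overlapped. A difference in *MPO* was thus not detectable at this depth, at which 3 counts correspond to 0.387 to 0.931 CPM.

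*LYZ* (ENSG00000090382, chr12:69348381-69354234, plus strand) encodes lysozyme, which cleaves bacterial cell walls and is found in several granule types. Control libraries held 4 and 2 and knockout libraries 5, 2, and 3 counts, or 1.24 and 0.592 against 0.645, 0.359, and 0.519 CPM. The sgMTSS1_1 pool lay between the control pools, and the log2-fold change without a filter was -0.65 with an adjusted p of 0.806 (edgeR, Benjamini-Hochberg). A gene without a symbol overlaps *LYZ* on the opposite strand, and whether reads were counted by strand is not given in the sources used here.

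*PRTN3* (ENSG00000196415, chr19:840999-848175, plus strand), the gene for proteinase 3, was the rarest member. Control libraries held 0 and 4 and knockout libraries 1, 0, and 0 counts. All control reads came from sgCtrl pool 2, at 1.18 CPM, and 0 counts allow a level of up to 0.931 CPM in sgCtrl pool 1, 0.539 in the sgMTSS1_2 pool, and 0.519 in the sgMTSS1_3 pool. A fit without a filter gave an adjusted p of 0.446 (edgeR, Benjamini-Hochberg). *PRTN3* lies in a run of genes on chromosome 19, all in 1 direction, between *AZU1*, 8980 bases upstream, and *ELANE*, 2838 bases downstream. *PLPPR3*, which flanks *AZU1* on its other side, had 0.931 and 7.70 CPM in the control and 1.29, 4.13, and 2.77 CPM in the knockout pools. *CFD*, which encodes complement factor D and follows *ELANE*, was well expressed, with 20.8 and 82.3 CPM against 53.5, 51.9, and 63.7 CPM. For both, the knockout values lay between the control values. *CFD* thus stood far above *PRTN3* in every pool.

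*PRG2* (ENSG00000186652, chr11:57386780-57390650, minus strand) encodes the major basic protein of eosinophil granules. Control libraries held 0 and 6 and knockout libraries 25, 4, and 20 counts, or 0 and 1.78 against 3.23, 0.718, and 3.46 CPM. The sgMTSS1_1 and sgMTSS1_3 pools lay above both control pools and the sgMTSS1_2 pool between them. The log2-fold change was 1.44 ± 1.04 (SE), with a 95% interval of -0.88 to 3.77 and an adjusted p of 0.442 (edgeR, Benjamini-Hochberg). Without sgCtrl pool 1, which had no count, it was 0.50. Its neighbour and paralog *PRG3* had 1.55 and 1.18 CPM in the control and 8.90, 1.08, and 2.77 CPM in the knockout pools, with an adjusted p of 0.313 (edgeR, Benjamini-Hochberg). In both genes the sgMTSS1_2 pool was the lowest knockout pool. Summed over the 5 analysed of 6 eosinophil markers, *PRG3* included, the level was 8.07 and 9.48 CPM in the control and 20.6, 5.03, and 12.5 CPM in the knockout pools, and the sgMTSS1_2 pool was again the lowest. In pools of cells, fewer cells of a type and less RNA per cell cannot be told apart. *PRG2* overlaps an unnamed gene on its own strand, and its counts are uncertain to that extent.

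*CST7* (ENSG00000077984, chr20:24949269-24959928, plus strand) encodes cystatin F, an inhibitor of the cathepsins that activate granule serine proteases. Control libraries held 12 and 26 and knockout libraries 50, 25, and 43 counts, or 3.72 and 7.70 against 6.45, 4.49, and 7.44 CPM. All 3 knockout values lay between the control values. The log2-fold change was 0.10 ± 0.48 (SE), with a 95% interval of -0.98 to 1.17 and an adjusted p of 0.927 (edgeR, Benjamini-Hochberg), and it turned to -0.02 when libraries were scaled by their total alone.

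**Figure D2:**
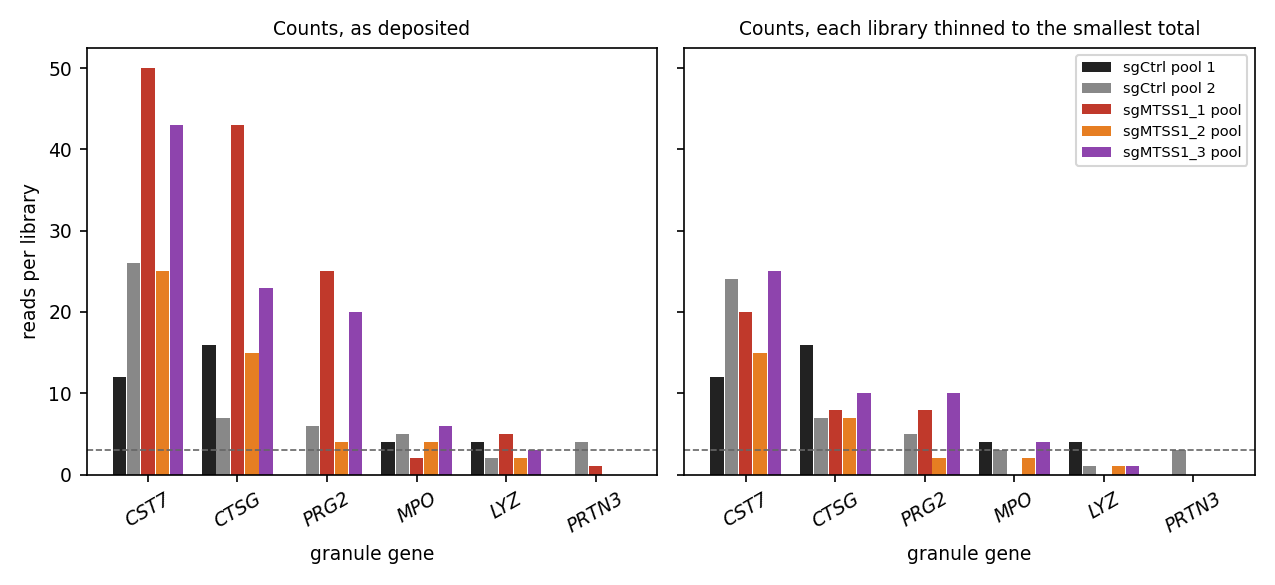
Counts of the 6 rare granule genes per library, as deposited (left) and after random thinning of every library to the total of the smallest one, 2849979 (right). Bars are single pools, and the dashed line marks 3 counts. The knockout pools hold most reads of *CST7*, *CTSG*, and *PRG2* as deposited, but after thinning *CTSG* is highest in sgCtrl pool 1, with 16 counts.

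**Figure D3:**
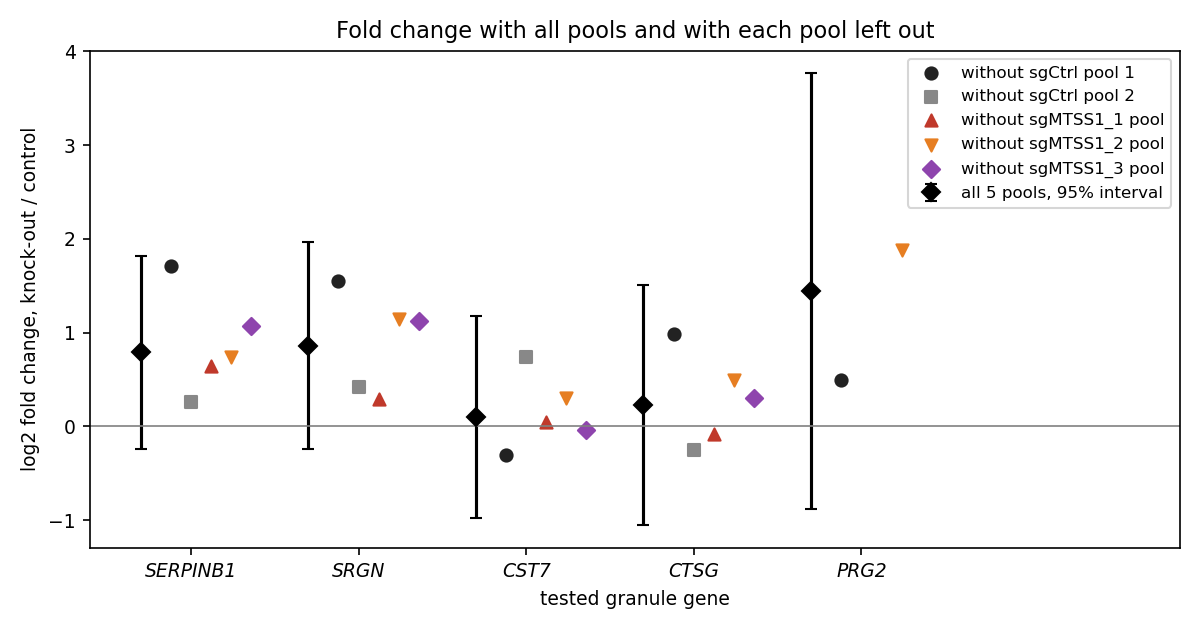
Log2-fold change of the 5 tested members with all pools (black, 95% interval) and with each pool left out (coloured). All 5 intervals include 0, and leaving out sgCtrl pool 1 raises *SERPINB1* to 1.71 and *SRGN* to 1.55. *PRG2* without sgCtrl pool 2 is not drawn, since its remaining control pool had 0 counts, and it was not tested without the sgMTSS1_1 or the sgMTSS1_3 pool.

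The genes whose levels followed *SERPINB1* most closely over the 5 libraries were *PPIC*, *RNF103*, *SLC27A6*, the pseudogene *RPL21P80*, and ENSG00000205018. Their root mean square difference from *SERPINB1*, on log2 CPM centred on each gene's mean, was 0.12 to 0.15, against a median of 0.82 over all tested genes. All 5 were picked for this pattern and so shared its lowest value in sgCtrl pool 2, where they held only 2 to 10 counts. None was called. *SERPINB9*, the nearest gene to *SERPINB1* on one side and the gene for a granzyme B inhibitor, had 13.7 and 3.26 CPM in the control and 2.32, 6.64, and 6.58 CPM in the knockout pools. Unlike *SERPINB1*, it was lowest in the sgMTSS1_1 pool, and it was not called either (adjusted p = 0.5498, edgeR with Benjamini-Hochberg).

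Genes that work with the members were followed in 9 lists, whose counts of calls stand beside the 4.17% of all tested genes called higher and the 1.01% called lower. Of 17 tested azurophil granule companions, whose 2 most abundant genes were *PSAP* and *CD63*, 2 rose and 0 fell. *CD63*, a tetraspanin of granule and lysosome membranes, rose from 160 and 204 CPM to 961, 561, and 656 CPM (log2-fold change 1.99 ± 0.37 SE, adjusted p = 0.0215, edgeR with Benjamini-Hochberg). *FUCA1*, a lysosomal fucosidase, rose from 13.0 and 8.29 CPM to 53.9, 40.9, and 55.4 CPM (2.23 ± 0.36 SE, adjusted p = 0.0136, edgeR with Benjamini-Hochberg). In *CD63* and *FUCA1* all knockout pools thus lay above both control pools, unlike in any tested member. *CD63* lost its call without the sgMTSS1_1 or the sgMTSS1_3 pool, with log2-fold changes of 1.73 and 2.09, and *FUCA1* without the sgMTSS1_1 pool, with 2.16. *PSAP*, the precursor of the saposins, had 468 and 653 CPM in control against 1169, 1159, and 1378 CPM in knockout pools (log2-fold change 1.14, adjusted p = 0.0876, edgeR with Benjamini-Hochberg). It passed both thresholds with DESeq2 (1.16, adjusted p = 0.00905) and with edgeR without a filter (1.29, adjusted p = 0.0408). Without sgCtrl pool 2 its log2-fold change was 1.43. The median log2-fold change of the companions was 0.32, with 12 of 17 above 0. *STXBP2*, also singled out after its values were seen, went the other way without a call (-1.70, adjusted p = 0.0547, edgeR with Benjamini-Hochberg). An antisense gene overlaps *CD63*. *PRSS57*, which encodes a further azurophil serine protease and was singled out after its values were seen, had 146 and 348 CPM in the control and 142, 136, and 190.1 CPM in the knockout pools, far above *CTSG* and *PRTN3*, and was not called.

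Of 8 tested specific and gelatinase granule genes, 1 rose, and the list was led in level by *B2M* and *QSOX1*. The gene that rose was *ADAM8*, a membrane metalloprotease, with 2 counts in the control group and 284 in the knockout group (adjusted p = 0.0209, edgeR with Benjamini-Hochberg). The ratio was 44.2 after correction for depth, with an exact 95% counting interval of 12.1 to 367 that leaves out the spread between pools. *ADAM8* had 0.621 and 0 CPM in the control and 7.61, 10.4, and 28.9 CPM in the knockout pools. *ADAM8* thus passed the limit on low counts only through the knockout pools. It lost its call without the sgMTSS1_1 pool and with limma-voom, where the fitted log2-fold changes were 5.88 and 5.26 against 5.57. Without sgCtrl pool 2 the log2-fold change was 4.62. None of 10 eosinophil, basophil, and mast cell genes (led by *HDC* and by the transcription factor *GATA2*, since the list holds regulators and receptors beside granule proteins), 4 granzyme and cytotoxic granule genes (*CTSC* and *PRF1*), or 6 protease inhibitors (*SERPINB6* and *CST3*) was called in either direction. With a replicate block, *PRF1*, the gene for perforin, was called lower (-2.2, adjusted p = 0.0138, edgeR with Benjamini-Hochberg).

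Genes that make granule proteins or bring them to the granule were in 3 lists. No gene was called among 28 of protease maturation and granule biogenesis, led by *HPS1* and *AP3B1*, and none among 12 of heme supply, led by *UROD* and *CANX*. The level of *HPS1* was 77.9 and 616 CPM in the control and 148, 168, and 198 CPM in the knockout pools. Its log2-fold change was -1.84 without sgCtrl pool 1 and 1.16 without sgCtrl pool 2. That of *UROD* was 1.46 and 0.68 in the same fits, in which only 1 control pool is left. The median log2-fold changes of these lists were -0.14 and -0.14. Of 20 genes that build the sugar chains of serglycin, led by *NDST1* and *B3GALT6*, 1 rose. This was *CHPF2*, a chondroitin polymerizing factor, with 1.86 and 2.07 CPM in the control and 7.48, 6.82, and 11.4 CPM in the knockout pools (adjusted p = 0.0454, edgeR with Benjamini-Hochberg). The log2-fold change was 2.11. *CHPF2* overlaps other genes and lost its call when any 1 knockout pool was left out. It also lost its call with library size alone, limma-voom, thinning, and a replicate block. The log2-fold change stayed between 1.85 and 2.28 over 13 alternatives.

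Of 13 tested transcription factors of granule genes, led in level by *MYB* and *GATA2*, 1 rose and 0 fell, and the median log2-fold change was -0.33. *GFI1*, a transcriptional repressor known to restrain the neutrophil elastase gene, rose from 6.21 and 5.03 CPM to 27.3, 25.9, and 30.8 CPM (log2-fold change 2.31 ± 0.36 SE, adjusted p = 0.0122, edgeR with Benjamini-Hochberg). Without the sgMTSS1_1 pool it was 2.32 with an adjusted p of 0.0551 (edgeR, Benjamini-Hochberg). *SPI1*, the gene for PU.1, whose motif is marked in the promoters above, had 26.7 and 12.1 CPM in the control and 12.1, 19.8, and 18.9 CPM in the knockout pools, without a call. Whether the change in *GFI1* bears on any member was not tested. Besides these groups, the 8 erythroid markers summed to 3928 and 6857 CPM in the control and to 2676, 1960, and 3281 CPM in the knockout pools, with 4 of 8 fitted log2-fold changes above 0. The globin gene *HBA1* was called lower (log2-fold change -1.73, adjusted p = 0.030, edgeR with Benjamini-Hochberg). The 10 progenitor markers summed to 1091 and 1050 CPM against 2059, 1506, and 1822 CPM, with none called. Sums over analysed megakaryocyte markers (138 and 95.95 against 212, 252, and 218 CPM), monocyte markers (16.4 and 10.1 against 18.8, 25.9, and 20.4 CPM), and lymphoid markers (13.0 and 19.8 against 7.35, 7.003, and 11.9 CPM) did not overlap between the groups either, with none called. The part of these cell states in the members' levels was not tested.

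**Figure D4:**
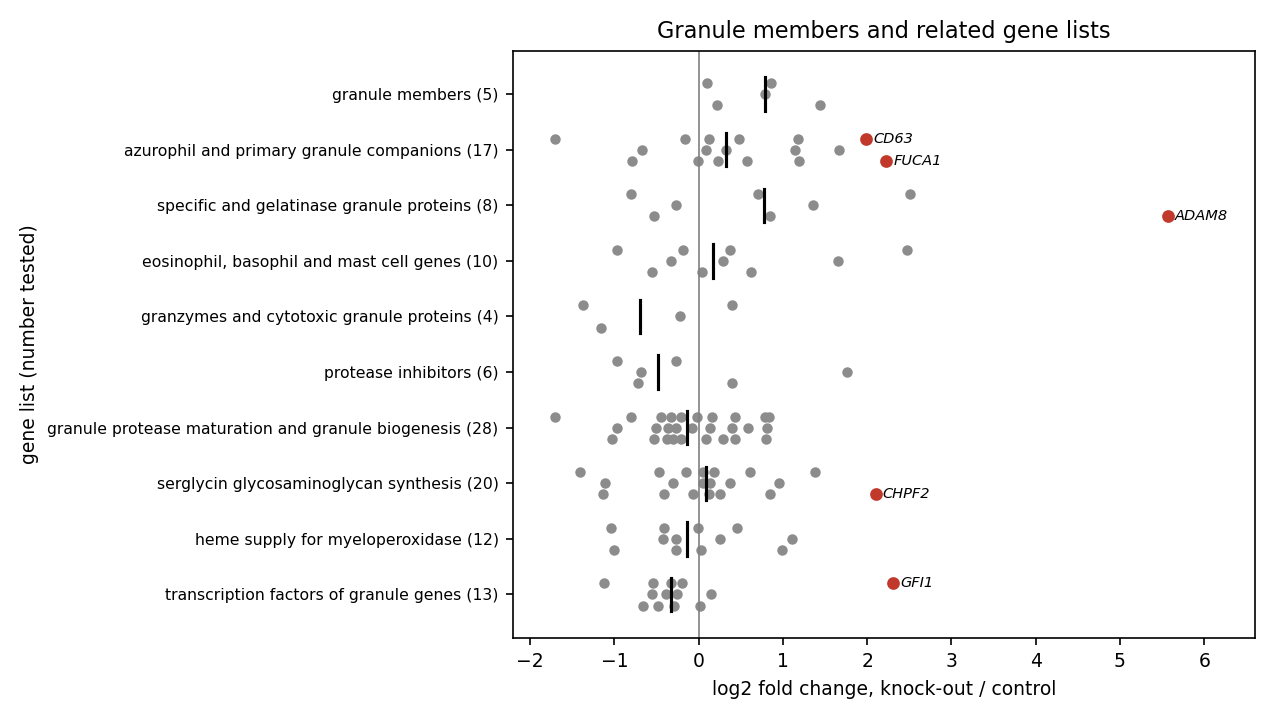
Log2-fold change between knockout and control pools for the tested granule members and 9 lists of related genes. Grey points are genes without a call, red points genes called, and black bars the list medians. The 5 called genes, all higher in the knockout pools, lie outside the granule members.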

How the data were processed

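RNA was measured in 2 sgCtrl and 3 *MTSS1* knockout TF-1 pools as 50 bp single-end QuantSeq 3′ reads. The authors trimmed adapters with BBDuk, aligned reads with HISAT2 2.1.0 to GRCh38, removed non-unique reads with SAMtools 1.10, checked quality with FastQC 0.11.9, and deposited raw counts per Ensembl gene without normalization. HISAT2, SAMtools, and FastQC versions are from the submitters' processing notes. The counting program, annotation release, and use of strand are not given in the sources used here. Removal of non-unique reads lowers counts of genes with near-identical copies. The authors excluded sgCtrl pool 3 and the sgMTSS1_4 pool as outliers; these were not analysed here.

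From the deposited counts, edgeR 4.0.16 in R 4.3.3 was run with TMM normalization, filterByExpr (minimum count 10), condition as the only term, and Benjamini-Hochberg adjustment over 14391 genes. The biological coefficient of variation was 32.2%. Calls required an adjusted p below 0.05 and a log2-fold change beyond 1. CPM use the TMM-scaled total. The test was first tested on simulated data. Of 27328 genes, 27211 had a symbol in GENCODE 44, which also gave positions. Promoters are from RefSeq, and 3 of the 8 analysed members matched an entry. Alternatives were DESeq2 1.42.0, limma-voom (limma 3.58.1), robust estimation, other scalings and filters, thinning, a replicate block, and each pool left out. Tables and plots came from matplotlib 3.10.9, pandas 2.3.3, and scipy 1.17.1 in Python 3.11.15.

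The members and lists were chosen with earlier results of these data known. Named genes were all members, the 2 most abundant tested genes and all called genes of each list, chromosomal neighbours of members, the 5 genes closest in pattern to the most abundant member, and *MTSS1*. *CD34*, *HBA1*, *PRSS57*, *SPI1*, and *STXBP2* fall outside this rule and were chosen after their values were seen. Reads carry no molecular identifiers, so intervals and limits from counts cover counting error only.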

Additional observations from a re-analysis of the deposited data

How the results depend on the processing

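The number of members called was 0 under all alternatives that kept both control pools. Calls of single genes are not given for fits with only 1 control pool left, and this number does not cover those fits. In these the log2-fold change of *SERPINB1* was 1.71 without sgCtrl pool 1 and 0.26 without sgCtrl pool 2. Over all genes, 600 were called higher and 145 lower. Without a filter on low counts 1173 were called higher, and with DESeq2 1034 higher and 238 lower. Scaling by library size alone gave 232 lower, and leaving out each pool gave 107 to 917 higher and 4 to 432 lower. The upper ends of both ranges came from the fit without sgCtrl pool 1. With only 1 control pool left in that fit, its spread could not be measured, and nothing is concluded from these upper ends. The number of calls depended on single pools among the knockout pools too, with the fewest calls without the sgMTSS1_1 pool. The median log2-fold change of all tested genes moved by -0.14 with library size alone, by 0.15 without a filter, and by 0.11 without sgCtrl pool 2.

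Signs turned for several genes without a call. *CTSG* was -0.32 in thinned libraries and -0.25 to 0.99 with each pool left out. *CST7* was -0.02 with library size alone, -0.02 with a replicate block, and -0.31 to 0.74 with each pool left out. *B3GALT6* was -0.09 with library size alone and -0.09 with the block. *CANX* was -0.12 with library size alone and -0.01 in thinned libraries, and *NDST1* was 0.04 with limma-voom. Leaving out each pool gave -0.06 to 1.03 for *HDC*, -0.65 to 0.13 for *GATA2*, -0.01 to 1.04 for *CTSC*, -1.84 to 1.16 for *HPS1* (main value -1.02), -0.74 to 0.91 for *NDST1*, -0.13 to 0.29 for *B3GALT6*, -0.03 to 0.12 for *CANX*, and -1.04 to 0.16 for *MTSS1*. Against a total without mitochondrially encoded and ribosomal protein genes, the members' mean share was 0.0413% in the control and 0.0639% in the knockout pools. The cause of these shifts was not tested.

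Pools numbered 1 and 2 in both groups share only a number. The difference between pools 1 and 2 correlated across genes with r = 0.17 between the groups, and with the number as a replicate block 894 genes were called higher and 200 lower, 0 of them members. Among named genes, the block ended the call of *CHPF2* and brought that of *PRF1*. *MPO*, *LYZ*, and *PRTN3* could be fitted only without a filter and by DESeq2. *PRG2* had too few counts to be tested under several alternatives, including thinning.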
